A study of Mus musculus with 14 samples.

Results

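The 10 genes described here are 6 fibroblast growth factor (FGF) ligands (Fgf1, Fgf2, Fgf5, Fgf7, Fgf18 and Fgf22), the receptors Fgfr1, Fgfr2 and Fgfr3, and Fgfbp1, a secreted carrier of FGFs. They were taken by symbol from the 47729 genes of the RNA-seq count tables, and their 10x counts were added. The samples came from the back skin of female mice aged 2 months (young) or 24 months (aged), with no genetic change or treatment named in the labels. For every sample the strain is entered as C57B8 in one label field and as C57B6 in another. Hair follicle stem cells (HFSC) were sorted as lineage-negative, integrin alpha6-high, CD34+ Sca1- cells, and epidermal stem cells (EpdSC) as lineage-negative, integrin alpha6-high, CD34- Sca1+ cells. Each population and age had 2 RNA-seq libraries and 1 ATAC-seq library (open chromatin), and each age had 1 10x single-cell library of lineage-negative, integrin alpha6+ skin epithelium. Nothing in the labels ties replicates to separate mice. The p-values therefore measure only the spread between these libraries, which may be technical.

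FGFs are secreted or released proteins that bind receptor tyrosine kinases together with heparan sulfate chains on the cell surface. The receptors pass the signal through the adaptor Frs2 to the Ras-MAP kinase and PI3 kinase routes, and Sprouty and Spred proteins and Il17rd restrain it. In skin, Fgf5 is known as the signal that ends hair growth, Fgf18 as a signal that holds the follicle at rest, and Fgf7 as a dermal signal to the epithelial form of Fgfr2. The study compared the 2 stem cell populations and the effect of age on them.

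RNA-seq libraries held 25126808 to 35905505 counts in genes, and 21464 genes passed the filter on low counts. All members but Fgf5 passed it. Marker levels differed between the populations in the direction of the sort labels. The bulge list holds Cd34 and the interfollicular basal list holds Ly6a (Sca1), the genes of the sort itself. The sums are therefore no independent check of it. The summed level of 8 bulge markers, in counts-per-million (CPM), was 17470 to 20360 in HFSC and 4084 to 5846 in EpdSC. The sum of 6 interfollicular basal markers was 6075 to 9374 in HFSC and 14400 to 21210 in EpdSC. Markers of Langerhans and myeloid cells summed to 3.46 to 30.8 CPM and those of T cells to 4.83 to 13.7 CPM over all libraries. Levels below are CPM after scaling for library composition, are not corrected for gene length, and are compared between libraries and not between genes.

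The sequences before the transcript starts of 4 members whose RNA or open chromatin is described below are shown first, so that a reader can set the promoter letters beside the values. Each is the 250 bases before the start in RefSeq's GRCm38.p6 table, read 5′ to 3′ towards the start, with GC boxes (GGGCGG on either strand) in capitals. They lie at chr11:33147401-33147650 (Fgf18, minus strand), chr5:33721474-33721723 (Fgfr3, plus strand, the upstream of 2 listed starts), chr7:130266809-130267058 (Fgfr2, minus strand) and chr5:43981800-43982049 (Fgfbp1, minus strand).
Fgf18: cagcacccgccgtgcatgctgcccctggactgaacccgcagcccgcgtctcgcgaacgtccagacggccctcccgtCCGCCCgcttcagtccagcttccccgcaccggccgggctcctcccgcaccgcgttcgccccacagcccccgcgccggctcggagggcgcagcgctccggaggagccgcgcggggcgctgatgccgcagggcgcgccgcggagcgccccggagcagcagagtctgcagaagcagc
Fgfr3: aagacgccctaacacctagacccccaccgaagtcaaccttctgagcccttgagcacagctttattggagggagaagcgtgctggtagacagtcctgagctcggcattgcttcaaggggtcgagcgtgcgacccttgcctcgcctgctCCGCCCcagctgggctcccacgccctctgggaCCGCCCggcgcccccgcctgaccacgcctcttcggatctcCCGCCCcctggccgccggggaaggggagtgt
Fgfr2: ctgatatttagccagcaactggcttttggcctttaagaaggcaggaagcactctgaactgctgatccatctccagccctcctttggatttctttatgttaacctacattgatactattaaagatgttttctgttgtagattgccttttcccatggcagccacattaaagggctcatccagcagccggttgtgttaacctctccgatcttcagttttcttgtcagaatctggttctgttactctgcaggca
Fgfbp1: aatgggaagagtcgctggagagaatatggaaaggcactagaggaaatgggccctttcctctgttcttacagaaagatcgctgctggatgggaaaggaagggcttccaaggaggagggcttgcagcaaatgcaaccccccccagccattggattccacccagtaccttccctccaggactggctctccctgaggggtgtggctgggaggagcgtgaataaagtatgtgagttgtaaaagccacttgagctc
The Fgf18 stretch held 37 CpG dinucleotides and 77.2% G or C, at percentile 98.1 of all 32851 promoters for CpG number. The Fgfr3 stretch held 19 CpG and 66.8% G or C. The Fgfr2 stretch held 2 CpG and 44.0% G or C, and that of Fgfbp1 held 3 CpG and 53.6% G or C, against a median over all promoters of 6 CpG and 52.4%. A GC box was found in 32.7% of all promoters of this length, and in those of Fgf2, Fgf5, Fgf18, Fgf22 and Fgfr3 (both starts) among the 8 members with an entry. No match to the AP-1 motif TGANTCA (in 6.75% of all promoters), the ETS motif CCGGAAGT (2.88%) or the TATA box TATAAA (12.4%), each searched on both strands, was found in these windows of the 8 members. A match is a match of letters only. Fgf1 and Fgfr1 have no entry in the table used.

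Fgf1 and Fgf18 were the ligands at over 5 CPM in HFSC, and both were higher there than in EpdSC at both ages. Fgf1 (chr18:38838672-38929470, mm10), which can bind every FGF receptor, was at 161 and 194 CPM in the 2 young HFSC libraries and at 155 and 172 CPM in the aged ones. In EpdSC it was at 1.68 and 1.94 CPM (young) and 2.16 and 2.21 CPM (aged). Every HFSC library lay far above every EpdSC library. The level in EpdSC was 98.1-fold lower in young mice (log2 fold change -6.62, SE 0.196, adjusted p = 4.62e-09, edgeR quasi-likelihood test, 2 libraries per group) and 74.6-fold lower in aged mice (log2 fold change -6.22, SE 0.192, adjusted p = 8.99e-09). In bulk samples fewer cells of a type and less RNA per cell cannot be told apart.

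Fgf18 (chr11:33116970-33147400) was at 15.2 and 13.5 CPM in young HFSC and at 6.71 and 6.85 CPM in the aged libraries. Its EpdSC libraries held 0 and 9 counts (young) and 5 and 11 counts (aged), against 458 and 344 counts in young HFSC. The 3 groups of young HFSC, aged HFSC and EpdSC did not overlap. The EpdSC to HFSC log2 fold change was -6.63 in young mice (SE 0.696, adjusted p = 2.41e-05) and -4.71 in aged mice (SE 0.638, adjusted p = 0.000195). Because the first young EpdSC library held no count, the young value rests on few reads. It was -5.58 without that library, and the fit gave -11.77 without the second one, where the only young EpdSC library left is at 0 and the size depends on the fit's prior count. Inner bulge markers, of a follicle layer beside the stem cells, summed to 346 to 723 CPM in HFSC and 4.64 to 70.6 CPM in EpdSC, and their part in the Fgf18 difference was not tested.

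**Figure D1:**
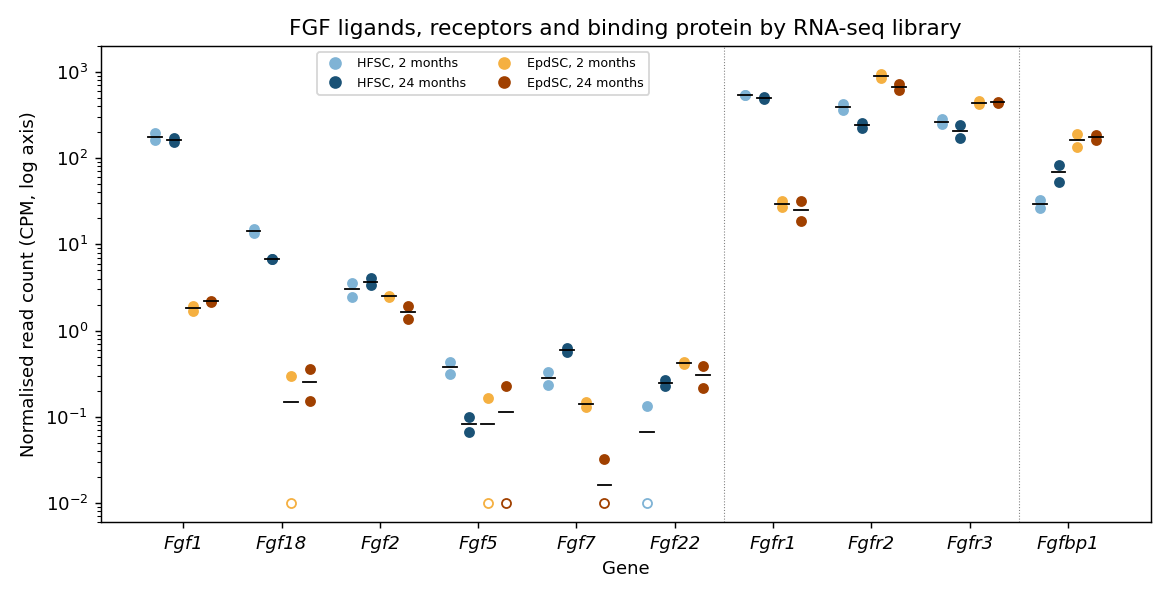
Normalised read counts (CPM, log axis) of the 10 genes in the 8 RNA-seq libraries, 1 point per library, coloured by population and age, with a bar at each group's mean and open circles at the lower edge for libraries with 0 counts. Fgf1, Fgf18 and Fgfr1 are higher in HFSC, Fgfr2, Fgfr3 and Fgfbp1 are higher in EpdSC, and the other 4 ligands lie under 5 CPM in every library.

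The other 4 ligands were near the lower end of the measured range. Fgf2, the classical basic FGF, was at 2.46 to 4.02 CPM in HFSC and 1.37 to 2.53 CPM in EpdSC. It did not pass the test in young mice (log2 fold change -0.27, adjusted p = 0.672) and was lower in aged EpdSC than in aged HFSC (log2 fold change -1.17, SE 0.382, adjusted p = 0.0456). That call was lost in 12 of its 15 alternative fits, in which its adjusted p ranged from 0.0335 to 0.275. Fgf7 had 10 and 6 counts in the young HFSC libraries and 17 and 19 in the aged ones. EpdSC held 5 and 4 counts of it in young mice and 0 and 1 in aged mice. Only the aged comparison of the populations passed (adjusted p = 0.0394), on these few counts, and it was lost in 9 of 14 alternative fits. A list of 8 fibroblast markers summed to 62.2 to 92.6 CPM in HFSC and 5.07 to 8.43 CPM in EpdSC. Of its 7 genes tested, 2 were called lower in young and 3 in aged EpdSC. The sum of 4 dermal papilla markers went the other way (2.68 to 14.8 CPM in HFSC, 25.7 to 52.7 CPM in EpdSC), but its genes were split. At each age 1 of the 4 was called higher and 1 lower in EpdSC. The list's median log2 fold change was -1.94 in young and -0.49 in aged mice. The part of these cells in the Fgf7 counts was not tested.

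Fgf22, a ligand of the same receptor form as Fgf7, had 4 and 0 counts in the young HFSC libraries and 8 and 7 in the aged ones. EpdSC held 14 and 13 counts of it in young mice and 7 and 12 in aged mice. None of its comparisons passed (adjusted p = 0.24 for young EpdSC against young HFSC). Fgf5 had 13 and 8 counts in the HFSC of young mice and 2 and 3 in those of aged mice. In EpdSC it had 0 and 5 counts (young) and 0 and 7 counts (aged), and it was too low to be tested.

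Among the receptors, Fgfr1 was an HFSC gene in these libraries, and Fgfr2 and Fgfr3 were present in both populations and higher in EpdSC. Fgfr1 (chr8:25518759-25575718) was at 534 and 542 CPM in the HFSC of young mice and 512 and 488 CPM in those of aged mice. The EpdSC libraries had 27.3 and 32 CPM of it in young mice, and 18.8 and 31.7 CPM in aged mice. The level in EpdSC was 18.1-fold lower in young mice (log2 fold change -4.18, SE 0.234, adjusted p = 1.76e-07) and 19.8-fold lower in aged mice (log2 fold change -4.31, SE 0.236, adjusted p = 1.88e-07). Within HFSC, and within EpdSC, the ages did not differ beyond the test (log2 fold changes -0.10 and -0.23). The sum of 8 melanocyte markers was also higher in HFSC (189.8 to 260.4 CPM) than in EpdSC (12.3 to 20.1 CPM), and its part in the bulk Fgfr1 level was not tested.

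Fgfr2 (chr7:130162451-130266808), the receptor of keratinocytes for dermal FGFs, was highest in young EpdSC, at 841 and 951 CPM. Next came aged EpdSC (721 and 614 CPM), young HFSC (357 and 424 CPM) and aged HFSC (255 and 226 CPM). The 4 groups stood in this order without overlap. EpdSC exceeded HFSC 2.30-fold in young mice (log2 fold change 1.20, SE 0.156, adjusted p = 0.000129) and 2.78-fold in aged mice (log2 fold change 1.47, SE 0.157, adjusted p = 3.16e-05). Gene counts do not separate the epithelial and mesenchymal splice forms of the receptor.

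Fgfr3 (chr5:33721724-33737068), a receptor known to restrain growth in cartilage, was at 459 and 422 CPM in young EpdSC and 449 and 438 CPM in aged EpdSC, so the 2 ages overlapped. HFSC held 247 and 285 CPM in young mice and 239 and 171 CPM in aged mice. EpdSC exceeded HFSC 1.66-fold in young mice (log2 fold change 0.73, SE 0.171, adjusted p = 0.00792) and 2.16-fold in aged mice (log2 fold change 1.11, SE 0.172, adjusted p = 0.000532).

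Fgfbp1 (chr5:43978858-43981828), which frees FGFs from heparan sulfate in the matrix, was at 189.9 and 133 CPM in young EpdSC and 186 and 163 CPM in aged EpdSC. HFSC had 26.2 and 32.8 CPM (young) and 53.0 and 84.3 CPM (aged). The EpdSC libraries were all above the HFSC libraries, and the aged HFSC libraries were both above the young ones. EpdSC exceeded HFSC 5.48-fold in young mice (log2 fold change 2.45, SE 0.244, adjusted p = 1.55e-05) and 2.54-fold in aged mice (log2 fold change 1.35, SE 0.234, adjusted p = 0.00122).

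In all, 6 of the 9 members tested passed between young EpdSC and young HFSC, 3 higher and 3 lower in EpdSC, where 26.1% of all genes tested passed (13.0% higher and 13.1% lower). Between the aged populations 8 of 9 passed, 3 higher and 5 lower in EpdSC, where 24.1% of all genes passed (12.2% higher and 11.9% lower). In each of the 8 fits with a library left out, the aged count was 6. The members' median log2 fold change was -0.27 in young and -1.17 in aged mice, against -0.06 and -0.09 over all genes. Fgf1, Fgf18, Fgfr1, Fgfr2, Fgfr3 and Fgfbp1 made up the 6 calls in young mice. The aged calls added Fgf2 and Fgf7. The members, and the pathway lists below, were chosen with earlier results of these data known. Their counts beside the shares of all genes are therefore a description and no test of the set.

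**Figure D2:**
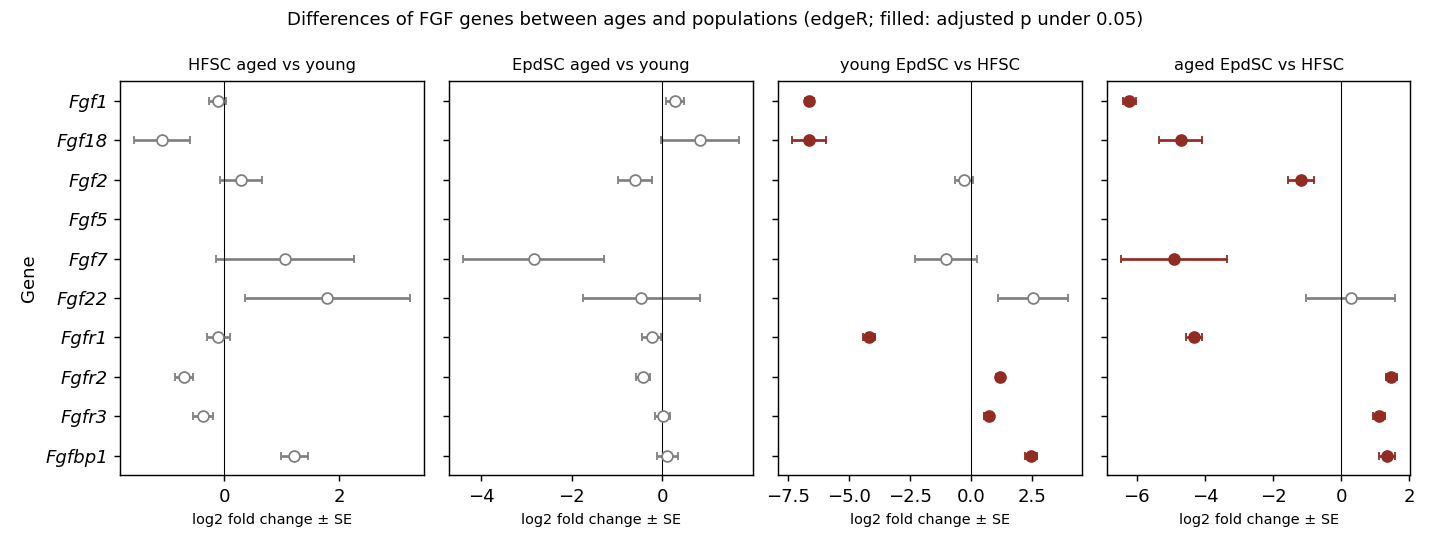
Log2 fold change ± SE (edgeR, 2 libraries per group) of the members tested, in 4 panels for age within HFSC, age within EpdSC, and EpdSC against HFSC in young and in aged mice; filled points have an adjusted p under 0.05, each panel has its own scale, and Fgf5 was not tested. All filled points lie in the 2 panels that compare the populations.

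With age, no member passed the edgeR test in HFSC, where 0.368% of all genes did (0.294% higher and 0.0745% lower), and none passed in EpdSC, where 0.0839% did (0.0559% higher and 0.028% lower). In HFSC 3 of the 9 members had an unadjusted p under 0.05 (7.68% of all genes did). DESeq2 called 2 members there, Fgfr2 lower and Fgfbp1 higher with age, and 2.19% of all genes. In EpdSC 1 member, Fgfr2, had an unadjusted p under 0.05 (4.46% of all genes did), and DESeq2 called none (0.545% of all genes). The libraries of Fgfbp1 in HFSC (26.2 and 32.8 CPM against 53.0 and 84.3 CPM) gave 2.33-fold more in aged mice (log2 fold change 1.22, SE 0.237, adjusted p = 0.0589, edgeR). Over 15 alternative fits its log2 fold change ranged from 0.85 to 1.504 and its adjusted p from 3.68e-09 to 0.344, and 6 of them called it. Without the second aged HFSC library, the higher of the pair, the log2 fold change was 0.85 with an adjusted p of 0.344.

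Markers of other epithelial cells were also higher in the aged HFSC libraries. The 6 interfollicular basal markers summed to 6075 to 6119 CPM in young and 6628 to 9374 CPM in aged HFSC. The 8 sebaceous markers went from a range of 364 to 441 CPM to one of 634 to 827 CPM, and the 8 suprabasal markers from 190.0 to 314 CPM to 429 to 521 CPM. The sum of 8 upper hair follicle markers was 1032 to 1266 CPM in young and 1313 to 2077 CPM in aged HFSC. No marker of these lists was at 0 in either group. Their part in the Fgfbp1 difference was not tested in the bulk libraries, and the level of Fgfbp1 within single cells is given below.

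Fgfr2 in HFSC was 1.62-fold lower with age (log2 fold change -0.70, SE 0.155, unadjusted p = 0.000839, adjusted p = 0.107, edgeR). Its adjusted p ranged from 0.00261 to 0.529 over 15 alternative fits, and 2 of them called it. In EpdSC the log2 fold change was -0.42 (SE 0.154, adjusted p = 0.985). In both populations both aged libraries lay below both young ones. Fgf18 in HFSC was 2.12-fold lower with age (log2 fold change -1.09, SE 0.486, adjusted p = 0.634), again without overlap of the libraries, and none of 15 alternative fits called it. The libraries of Fgfr1 in HFSC did not overlap either, at a log2 fold change of -0.10 with age. With 2 libraries a group, a lack of overlap is therefore not read as support for an age difference of any member. The age log2 fold change of Fgfr3 in HFSC was -0.37 (SE 0.171, adjusted p = 0.652) and that of Fgf1 was -0.12 (SE 0.146, adjusted p = 0.982).

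Whether age acted differently in the 2 populations was tested as the difference of the age effects, HFSC minus EpdSC. No member passed, against 0.00466% of all genes, 1 member had an unadjusted p under 0.05 (4.57% of all genes did), and DESeq2 called none (0.465% of all genes). That member was Fgfbp1, with a difference of 1.11 (SE 0.328, unadjusted p = 0.00604, adjusted p = 0.651, edgeR). The difference for Fgf18 was -1.91 (SE 0.993) and that for Fgfr2 was -0.27 (SE 0.218), neither past the test.

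Other genes of the pathway were read from lists by role, against 13.0% of all genes higher and 13.1% lower in EpdSC of young mice, and 12.2% and 11.9% for aged mice. Of 16 further ligands listed 7 were tested, and 1 was higher and 1 lower in young EpdSC. Fgf13, an intracellular relative that does not act through the receptors, was higher (0.466 and 0.197 CPM in HFSC, 4.82 and 6.65 CPM in EpdSC, adjusted p = 9.72e-05). Fgf6 was lower, with 21 and 19 counts in HFSC and 1 and 0 in EpdSC (adjusted p = 0.0214), a call lost in 4 of 14 alternative fits (adjusted p from 0.0117 to 0.0951). Of 12 further receptors, co-receptors and binding proteins, none was higher and 6 were lower in young EpdSC, with a list median of -0.71 on the log2 scale against -0.06 over all genes. Lower genes included Fgfrl1, a receptor without a kinase (log2 fold change -3.18, SE 0.485), Flrt2, a membrane partner of the receptors (-1.79, SE 0.250), and the inhibitor Il17rd (-1.45, SE 0.186). In aged mice the list again had 0 higher and 6 lower, among them Fgfrl1 (-2.76) and the adhesion molecule Ncam1 (-3.26), and Fgf13 was again higher (2.65).

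Of 25 heparan sulfate proteoglycans and enzymes, 5 were higher and 8 lower in young EpdSC, and 4 higher and 11 lower in aged EpdSC, against the shares of all genes just given. The matrix proteoglycan Hspg2 (perlecan) was lower in young EpdSC by 6.35-fold and the glypican Gpc6 by 51.3-fold, at 42.1 and 48.1 CPM in HFSC against 0.647 and 1.12 CPM in EpdSC. Hs3st3b1, a heparan sulfate sulfotransferase, was 6.39-fold higher in young EpdSC. In aged mice Sulf2, which trims sulfate from heparan sulfate, was lower as well (log2 fold change -3.08), beside Gpc6 (-6.16) and Hspg2 (-2.73). Of 23 transducers, 5 were higher and 5 lower in young EpdSC, among them Hras (log2 fold change 0.80, SE 0.155), Braf (-0.68, SE 0.146) and Plcg1 (-0.65, SE 0.146). The calls of Braf and Plcg1 were each lost in 1 of 15 alternative fits. Of 18 targets and feedback genes, 6 were higher and 4 lower. The immediate early genes Fos and Egr1, which answer many signals, were 13.9-fold and 7.56-fold higher in young EpdSC, and of the Spred inhibitors Spred2 was higher (2.29-fold) and Spred3 lower (9.91-fold).

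Etv4 and Spry4, which are induced by FGF signals, are added here after their values were seen, so they do not stand for the list. Of its 18 genes, 6 were higher and 4 lower in young EpdSC. Etv4 was lower in young EpdSC (31.2 and 21.4 CPM in HFSC, 8.18 and 3.13 CPM in EpdSC, adjusted p = 0.00337), and so was Spry4 (3.03 and 2.79 CPM against 0 and 0.230 CPM, adjusted p = 0.0013). Spry4 in young EpdSC was near the lower end of the measured range. With age its log2 fold change in EpdSC was 2.12 (SE 0.866), which was not called. The targets Dusp6 and Etv5 did not pass (log2 fold changes -0.41 and 0.17). With age, edgeR called no gene of the 5 pathway lists in either population. Unadjusted p was under 0.05 for 4 of 18 targets in HFSC and 4 of 18 in EpdSC, where it was for 7.68% and 4.46% of all genes, and for no transducer. In HFSC it was also for 1 of 7 further ligands, 3 of 12 receptors and co-receptors and 3 of 25 heparan sulfate genes. In EpdSC these counts were 0, 0 and 2. DESeq2 called 1 of the listed genes with age, Fos in HFSC (adjusted p = 0.0347, against 0.0761 with edgeR and a log2 fold change of 1.58), whose libraries were at 235 and 94.0 CPM in young and 551 and 431 CPM in aged mice.

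Genes whose pattern over the 8 libraries was most like each member were ranked by Pearson's r of log2 CPM, as a description over libraries that share 2 populations and 2 ages. For Fgf1 they were Zfp275 and Grem1 (both r = 0.999), with Grem1, a secreted BMP antagonist, at a mean of 889.9 CPM in young HFSC and 1.15 CPM in young EpdSC. For Fgfr1 they were the collagen gene Col5a2 and Igsf10 (both r = 0.999). Fbxo44 and Prdm1 followed Fgf18 (r = 0.993 and 0.992), and Sema5a and Srcin1 followed Fgfr2 (both r = 0.993). Fgfr3 was followed by E2f8 and Pan3 (both r = 0.990) and Fgfbp1 by Cd276 and Cnih1 (r = 0.992 and 0.991).

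Open chromatin was read from 4 ATAC-seq libraries, 1 per group, so no test was made and intervals cover counting error only. They held 8243611 counts in non-overlapping windows (aged HFSC), 22933001 (aged EpdSC), 26169738 (young HFSC) and 37322834 (young EpdSC). The aged HFSC library stood apart, since the median promoter over all genes was 0.64 lower on the log2 scale than in young HFSC. The young pair is therefore given first. Within 1000 bases of the start, the Fgfbp1 promoter held 148 counts (5.66 CPM) in young HFSC and 594 counts (15.9 CPM) in young EpdSC. This log2 ratio of 1.49 (interval 1.23 to 1.76) was at percentile 95.3 of all genes, and Fgfbp1 was the only one of 8 members higher by at least 2-fold, where 10.7% of all promoters were and 7.74% were lower. In the aged pair 4 of 8 members were higher by at least 2-fold and none lower, where 41.6% and 7.05% of all promoters were. There the Fgfbp1 log2 ratio was 1.87 (interval 1.34 to 2.50), 1.00 above the median of all genes.

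The Fgf18 promoter, the CpG-rich sequence shown above, was open in both populations. It held 11.5 CPM in young HFSC and 9.35 CPM in young EpdSC, a log2 ratio of -0.29 (interval -0.52 to -0.07), next to the RNA log2 fold change of -6.63. In aged EpdSC it held 11.5 CPM, and in aged HFSC 4.73 CPM from 39 counts. The Fgfr2 promoter was at 15.2 and 16.7 CPM in young HFSC and EpdSC, a log2 ratio of 0.14 (interval -0.04 to 0.32). The upstream Fgfr3 start was at 12.9 and 19.7 CPM, a log2 ratio of 0.62 (interval 0.43 to 0.81). Promoters of Fgf2, Fgf7 and Fgf22 had at most 75 counts in each library, and their young intervals included 0. The Fgf5 promoter held 31 and 87 counts in young HFSC and EpdSC, a log2 ratio of 0.96 (interval 0.37 to 1.62), with hardly any Fgf5 RNA in either.

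Between the ages, the promoters of 2 of 8 members (Fgf18 and Fgf22) were lower by at least 2-fold in aged HFSC, where 21.1% of all promoters were lower and 5.51% higher. None was past 2-fold in EpdSC, where 3.98% of all promoters were lower and 2.3% higher. Relative to the median of all genes, the aged to young HFSC ratio was -0.62 for Fgf18 (percentile 7.01), -0.19 for Fgfr2 and -0.02 for Fgfbp1. For Fgf22 it was -0.77 (percentile 3.47), on only 5 counts in aged and 46 in young HFSC. The Fgfbp1 promoter was at percentile 48.2 of all genes between the HFSC ages. The shallow aged HFSC library was not replicated, and its part in these ratios was not tested.

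Around the genes (10000 bases to each side), windows of 500 bases with at least 4 CPM in either library were compared for a 4-fold difference. Each member window past 4-fold reached 4 CPM only in the library where it was higher. Counts of such windows by direction are therefore a description only. Between young EpdSC and HFSC, 4 of 12 such windows of Fgf1 were lower in EpdSC, where 13.8% of all windows were lower and 12.4% higher. The widest difference lay at chr18:38846501-38847000 (mm10), inside the gene's span of 38838672 to 38929470, with 220 counts (8.41 CPM) in HFSC and 16 counts (0.429 CPM) in EpdSC. Both windows of Fgfr1 at this level, which reached it in HFSC only, were lower in EpdSC. They join at chr8:25536501-25537500, inside the span of 25518759 to 25575718, with 4.78 and 7.60 CPM in HFSC and 0.857 and 1.77 CPM in EpdSC. The lower end of the Fgfr1 gene, by contrast, was open in both, at 6.69 and 6.03 CPM within 1000 bases. Within 1000 bases of the upper end of Fgf1 there were 4.70 CPM (123 counts) in young HFSC and 1.04 CPM (39 counts) in young EpdSC. At its lower end the values were 0.688 and 0.295 CPM, from 18 and 11 counts. Whether the windows past 4-fold are exonic or intronic was not analysed here.

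For Fgfbp1, 3 of 8 windows were higher in young EpdSC. Adjoining windows at chr5:43980001-43981000, inside the gene (43978858 to 43981828), were at 0.535 and 0.879 CPM in HFSC and 4.61 and 5.36 CPM in EpdSC. The third, at chr5:43986001-43986500, upstream of the gene, was at 0.917 and 5.31 CPM. In the aged pair 2 of 7 windows of Fgfbp1, 2 of 8 of Fgfr3 and 1 of 6 of Fgfr2 were higher in EpdSC, where 26.0% of all windows were higher and 4.07% lower. Neither of the 2 Fgf1 windows at 4 CPM in the aged pair was past 4-fold, and no Fgfr1 window reached 4 CPM there. For Fgfr2, 1 of 10 windows was lower in young EpdSC, at chr7:130240501-130241000. No member had a window past 4-fold between the ages, where 2.66% of windows were lower in aged HFSC and 0.0382% higher in aged EpdSC.

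**Figure D3:**
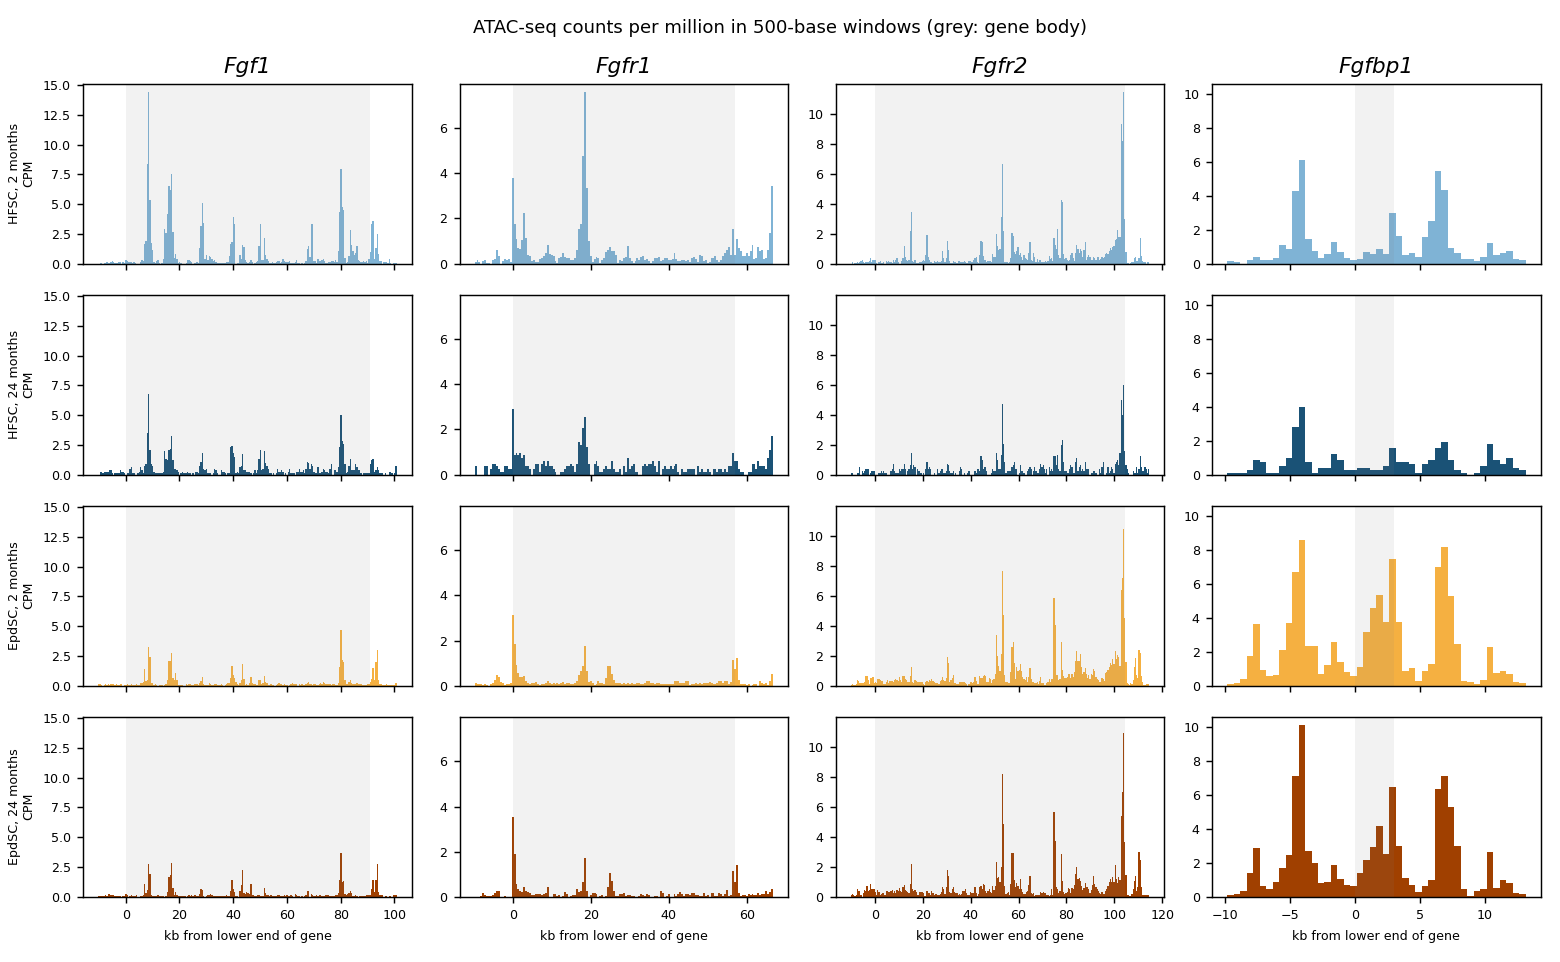
ATAC-seq CPM in 500-base windows along Fgf1, Fgfr1, Fgfr2 and Fgfbp1 (columns) in the 4 libraries (rows), against the distance in kb from the lower end of the gene, with the gene body in grey and 1 scale per gene. Peaks inside Fgf1 and Fgfr1 are tallest in young HFSC, those of Fgfbp1 in the EpdSC libraries, and the tall peaks of young HFSC are lower in the aged HFSC library.

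Single cells gave levels of the members by class of epithelial cell. The young 10x library had 4038 cells (median 3923 UMIs, unique molecules) and the aged one 4469 cells (median 2271 UMIs), with 33 cell barcodes shared between them. Cells were clustered without any gene of the FGF lists and named by markers. There were 339 young and 300 aged Bulge-like cells, 697 and 553 Upper hair follicle-like, 43 and 85 Sebaceous-like, 481 and 671 Suprabasal-like, and 109 and 185 Proliferating-like cells. The other 7 clusters, with 2369 young and 2675 aged cells, had no marker list that passed and stay unnamed. No cluster was named from the interfollicular basal list, so the rankings of named classes below hold no such class. In the young library the unnamed cells held 11 of 53 UMIs of Fgf1 and 155 of 389 of Fgfr1. They also held 1392 of 1766 of Fgfr2, 519 of 728 of Fgfr3 and 3268 of 6106 of Fgfbp1. With 1 library per age there is no test, and intervals (95%, exact Poisson or binomial) cover counting error only. Free RNA was read from barcodes with 1 to 20 UMIs. These held, in the young and aged library, Fgf1 at 0.0396 and 0.0926 UMIs per 10000, Fgfr1 at 0.287 and 0.432, Fgfr2 at 1.475 and 1.30, Fgfr3 at 0.693 and 1.19, and Fgfbp1 at 3.92 and 3.58. All cells together were under that level for Fgfr2 (1.04 and 0.855) and Fgfr3 (0.427 and 0.617). A class at or under the level of the low barcodes is not ranked for the gene. This does not show that the class lacks the gene.

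Fgf1 and Fgfr1 were highest in Bulge-like cells among the named classes in both libraries. Fgf1 was at 0.358 UMIs per 10000 in young Bulge-like cells (33 UMIs, interval 0.246 to 0.503) and 0.332 in aged ones (16 UMIs, interval 0.190 to 0.540), above the low barcodes of each library. Among cells with at least 1000 genes, only 42 of the 300 aged Bulge-like cells were left. They held 0 UMIs of Fgf1, which allows up to 0.224 per 10000, so the aged order for Fgf1 does not hold under that demand. Upper hair follicle-like cells had 0.0301 and 0.0296, and Suprabasal-like cells had 0 and 2 UMIs in all. Fgfr1 was at 1.48 UMIs per 10000 in young and 1.27 in aged Bulge-like cells, 0.278 and 0.464 in Upper hair follicle-like cells, where it was near the low barcodes, and 0.0294 and 0.0178 in Suprabasal-like cells. With at least 1000 genes the aged Bulge-like value was 0.748, from 10 UMIs. An unnamed cluster led by Cldn10, Fam13a and Dct also held Fgfr1, at 0.669 and 0.999. The share of Bulge-like cells with an Fgfr1 UMI was 30.4% (young) and 19.7% (aged) at median depths of 2456 and 1414 UMIs, and 12.7% and 12.1% after thinning to 1000 UMIs per cell, which left out 36 aged cells. In Suprabasal-like cells, at median depths of 5503 and 3157 UMIs, the thinned share was 0.416% and 0.149%.

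Fgf18 gave 11 UMIs in all young cells, of which 10 lay in Bulge-like cells, and 1 UMI in all aged cells, in a Bulge-like cell. Its aged to young ratio was 0.139 over all cells (interval 0.00322 to 0.954) and 0.191 in Bulge-like cells (interval 0.00441 to 1.35). It was the only member more than 2-fold apart over all cells among those with at least 10 UMIs, and it rests on these few molecules. No UMI of Fgf7 or Fgf22 was found, which allows a share of up to 0.0743% of young and 0.0671% of aged cells with a UMI. Fgf2 had 5 UMIs in each library and Fgf5 had 1 and 0.

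In every named class and both libraries, Fgfr2 was under its level in low barcodes, and so was Fgfr3, so no order of the classes is read for these receptors. Fgfr2 was at 0.748 and 0.561 UMIs per 10000 in young and aged Bulge-like cells and ranged from 0.281 to 1.01 over the named classes. In the 7 unnamed clusters it ranged from 0.588 to 1.61. Fgfr3 ranged from 0.0412 to 0.692 over the named classes and was lowest in Sebaceous-like cells, from 2 UMIs and 1 UMI. Of 4038 young cells, 1305 held an Fgfr2 UMI, 621 an Fgfr3 UMI and 260 both.

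Among the named classes Fgfbp1 was highest in Sebaceous-like cells, well above the low barcodes. The level there was 16.9 UMIs per 10000 in the young library (481 UMIs, interval 15.4 to 18.5) and 22.5 in the aged one (547 UMIs, interval 20.7 to 24.5). It was at 4.74 and 5.07 in Upper hair follicle-like cells, and under the low barcodes in Suprabasal-like cells (2.50 and 1.95) and Bulge-like cells (1.03 and 0.976). In Bulge-like cells the aged to young ratio was 0.947 (interval 0.653 to 1.36), while the bulk HFSC libraries gave 2.33-fold more in aged mice. The 10x gate holds more cell kinds than the HFSC gate, so these values do not measure the same cells. In the unnamed cluster led by Gpnmb and Thy1, with 92 young and 1401 aged cells, Fgfbp1 was at 3.39 (young) and 1.53 (aged).

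**Figure D4:**
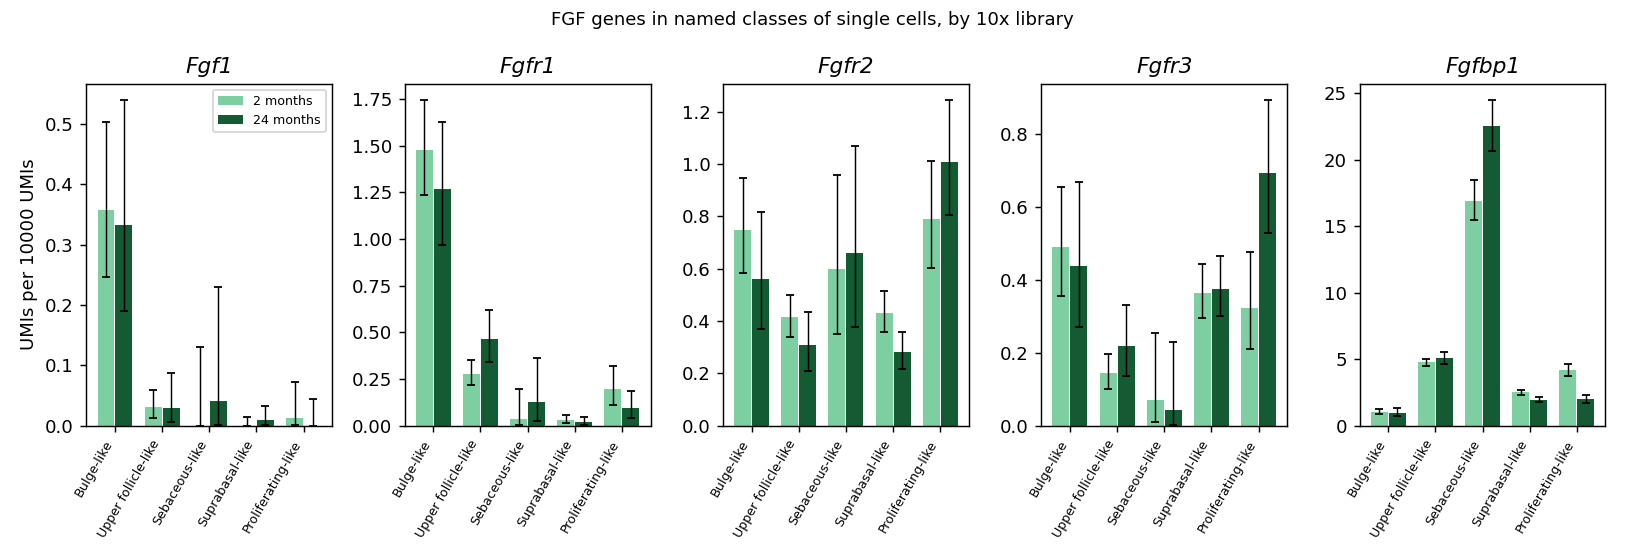
UMIs per 10000 UMIs of 5 members in the 5 named classes of single cells, with 1 bar per 10x library and exact 95% Poisson intervals for counting error; each panel has its own scale. Fgf1 and Fgfr1 are highest in Bulge-like cells and Fgfbp1 in Sebaceous-like cells, at both ages.

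Over all cells, the aged to young ratio was 0.949 for Fgf1 (interval 0.595 to 1.49), 0.917 for Fgfr1 (0.777 to 1.08), 0.825 for Fgfr2 (0.761 to 0.893), 1.45 for Fgfr3 (1.30 to 1.61) and 0.749 for Fgfbp1 (0.717 to 0.783). These ratios mix levels with the make-up of the libraries, which differed between the ages, and with free RNA, whose part was not tested. Under other filters on cells the log2 ratio of Fgf1 ranged from -0.79 to 0.55, so its direction turned, and that of Fgfr1 from -0.74 to -0.13. Within Proliferating-like cells Fgfr3 had an aged to young ratio of 2.14 (25 and 59 UMIs, interval 1.32 to 3.57), beside 0.693 and 1.19 UMIs per 10000 in low barcodes. Fgfbp1 had one of 0.475 there (321 and 168 UMIs, interval 0.392 to 0.574), beside 3.92 and 3.58. The ratio of Fgfr1 there was 0.484, on 15 and 8 UMIs (interval 0.178 to 1.22), beside 0.287 and 0.432. For Fgfr1, Upper hair follicle-like cells gave 1.67 (interval 1.13 to 2.44) when pooled. Within its clusters the ratio was 1.37 (interval 0.897 to 2.08) in the one led by Tm4sf1 and 0.724 (interval 0.138 to 2.42) in the one led by Krt79, and both intervals include 1. The first cluster held 367 young and 428 aged cells and the second 330 and 125.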

How the data were processed

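RNA-seq, ATAC-seq and 10x single-cell data of sorted mouse skin cells were used. The authors deposited whole-number counts per gene, per 500-base window and per gene and cell barcode, with mm10, STAR, Bowtie and Cell Ranger named in the submitters' processing notes without roles or versions. For the annotation release, strand setting and duplicate removal: not given in the sources used here. Without strand, reads of overlapping antisense genes cannot be told apart.

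Gene counts were fitted once over all 8 libraries with edgeR 4.0.16 (R 4.3.3; TMM scaling, filterByExpr, quasi-likelihood test). P-values were adjusted by the Benjamini-Hochberg method over all genes tested, and an adjusted p under 0.05 was a call. DESeq2 1.42.0, other filters and scalings, a replicate block and leaving out each library were alternatives. The code was tested on simulated data. ATAC-seq windows that do not overlap were summed within 1000 bases of RefSeq starts, as CPM, with a pseudocount of 0.5 and at least 20 counts in a pair.

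10x barcodes were kept above the 99th percentile, divided by 10, of the 4000 deepest barcodes, with at least 500 genes and at most 10% mitochondrial UMIs. Cells of both libraries were clustered with scanpy 1.11.5 on 2000 variable genes and 30 components (Leiden resolution 1.0). A class name required that over 50% of a marker list be at least 2-fold higher, a demand added after the data were seen. The Scrublet caller marked 3 young cells and 1 aged cell, so doublets were not removed.

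The members and lists were chosen with earlier results of these data known. Named pathway genes were, per list and comparison, up to 4 called genes with the smallest p, or up to 2 where none was called. Genes most like a member were the top 2 by r among named genes of at least 5 CPM in a group.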

Additional observations from a re-analysis of the deposited data

How the results depend on the processing

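Between the populations the calls of Fgf1, Fgf18, Fgfr1, Fgfr2, Fgfr3 and Fgfbp1 held in all 15 alternative fits at both ages. The count of members called in HFSC with age went from 0 to 1 without the composition factor, to 2 with no filter on low counts and to 2 with DESeq2, and was 0 to 1 with a library left out. With no filter 1 member (Fgfbp1) was called for the difference of age effects, where the main count was 0. All genes called in HFSC with age numbered 79, and 662 with no filter, 52 at 1 CPM in 2 libraries, 359 by DESeq2, 160 with the replicate block, 9 in a fit of the compared groups only and 12 to 161 with a library left out. In EpdSC they numbered 18, and 11 without the composition factor, 239 with no filter, 10 at 1 CPM in 2 libraries, 85 by DESeq2, 3 in a fit of the compared groups only and 6 to 31 with a library left out. Young EpdSC against HFSC gave 5600, and 3668 to 5771 with a library left out. The difference of age effects gave 1, and 285 with no filter, 87 by DESeq2, 3 with the replicate block and 0 to 63 with a library left out. Correlations of deviations between libraries of the same replicate number ranged from -0.214 to 0.174. They were 0.157 between the HFSC ages and 0.174 between the EpdSC ages. With 2 libraries a group they cannot settle whether replicate numbers pair the libraries. With the replicate block the members called in the aged pair of populations went from 8 to 6, and it changed no other count of members called.

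Log2 fold changes that turned sign, none of them called, are given with their range over fits that leave out a library. In HFSC with age this was Fgf1 (-0.2715 to 0.0037). In EpdSC with age they were Fgf18 (-0.2305 to 6.0007), Fgfr1 (-0.6730 to 0.1116), Fgfr3 (-0.0358 to 0.0551, and -0.0133 without the composition factor and -0.0016 with no filter), Fgfbp1 (-0.1075 to 0.3710), Fgf3 (-7.0033 to 0.0000, on few counts) and Nrp1 (-0.0531 to 2.0218). Between the populations they were Fgf2 in young mice (-0.4863 to 0.0159) and Fgf22 in aged mice (-0.1624 to 0.6701). The difference of age effects of Fgfr1 ranged from -0.2405 to 0.5502, with -0.0282 without the second young EpdSC library.

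Members' windows past 4-fold numbered 10 in the young pair (23 at 2-fold, 2 at a minimum of 8 CPM), 5 in the aged pair (21 and 0) and 0 between HFSC ages (20 at 2-fold). Within 500 bases, 2 promoters were past 2-fold in the young pair in place of 1. In Bulge-like cells with at least 1000 genes, aged Fgf1 was 0 and aged Fgfr1 0.748, and at Leiden resolution 0.5 young Fgfr1 was 1.21. Suprabasal-like Fgfr2 was 0.249 (young, thinned) and 0.330 and 0.150 (young and aged, resolution 1.5). Sebaceous-like Fgfbp1 was 20.7 and 25.6 (young and aged, thinned) and 19.7 (aged, 1000 genes). The count of members 2-fold apart between the 10x libraries went from 1 to 0 at 1000 genes, at 5% mitochondrial UMIs and after thinning. There Fgf18, the member counted, no longer had 10 UMIs in 1 library with a UMI in both, so no ratio was formed. Under the alternative where it had a ratio, its log2 ratio was -2.84, against -2.85. Except where construction shows it (fewer libraries, windows or cells), the cause was not tested. The aged 10x and aged HFSC ATAC-seq libraries were shallower than their young partners, which limits the precision of each value from them.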
